A study of Homo sapiens with 8 samples.

Results

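In NB4 cells, 109 genes had 20 or fewer read pairs in every untreated library and a level of at least 2 CPM (counts scaled to library size) in both libraries of control cells given all-trans retinoic acid (ATRA). They came from 37526 gene names that all 8 libraries list, of which 25471 met the untreated limit and 10211 the ATRA minimum. Of the 120 names that met both, 7 clone names and 4 genes (TGM2, PTGES, BPI and FFAR2) were left out by the same rule. A CPM is a gene's count scaled to a common total of read pairs counted on genes, and it is not adjusted for gene length, so CPM levels are compared between libraries and not between genes. The genes were selected on their counts in the untreated and the control ATRA libraries, so the rise with ATRA is a description of the choice and carries no test. The 2 libraries of KDM3B-silenced cells given ATRA were not used to choose the genes.

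NB4 is an acute promyelocytic leukemia (APL) line that carries the PML/RARα fusion. Cells stably transduced with the lentiviral vector pLVX-shRNA2-puro carried either a control (scramble) or a short hairpin RNA against KDM3B (shKDM3B), and each was sequenced without and with ATRA in 2 replicates. The labels call the control an empty vector and the methods of the study a scrambled hairpin. The labels give ATRA at 1 µM for 24 or 48 h without assigning a time to a library, whereas the methods give the concentration as 1 mM. No source used here ties replicates to separate cultures, so the p-values measure the spread between libraries only. All results come from this 1 cell line, and in bulk RNA a smaller share of responding cells and a lower level in each cell cannot be told apart.

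ATRA is the ligand of the retinoic acid receptors, which bind DNA as heterodimers with RXR at retinoic acid response elements (RAREs). In APL the PML/RARα fusion represses genes of myeloid differentiation, and pharmacological ATRA releases that repression, degrades the fusion and drives promyelocytes toward granulocytes. KDM3B is a demethylase of histone H3 lysine 9, and the comparison of the ATRA-treated cells addressed whether silencing it alters the genes that ATRA induces.

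Promoter windows, from 250 bases before to 50 bases after the start, were found in the RefSeq table (GRCh38.p14) for 75 of the 109 genes. They were searched on both strands for 4 hexamers of the RARE. Any of these stood in 28 of the 75, 37.3%, against 38.6% of all 35116 promoter windows. AGGTCA was in 5.33% of the genes' windows and 13.8% of all. GGGTCA was in 21.3% and 14.1%. AGTTCA was in 18.7% and 10.4%, and the share for GGTTCA was 9.33% against 8.62%. The PU.1 core GAGGAAG stood in 14.7% of the genes' windows and 13.6% of all, and the AP-1 site TGANTCA in 10.7% and 7.71%. Direct repeats of AGGTCA spaced by 1, 2 or 5 bases were in 0 of the 75 windows and in at most 0.0228% of all. A pair of any of the 4 hexamers in the same orientation at these spacings, a search added after the data were seen and containing the single hexamers, was in 3 windows, 4%, against 0.259% of all. Those 3 windows, RARB, BATF2 and BTBD19, are shown with the paired hexamers in capitals and any single ones in lower case. CCL24 and FPR1 are shown for the AP-1 letters next to the start, also in capitals. All are written 5′ to 3′ on the strand of the gene.
RARB, chr3:25428013-25428312, plus strand: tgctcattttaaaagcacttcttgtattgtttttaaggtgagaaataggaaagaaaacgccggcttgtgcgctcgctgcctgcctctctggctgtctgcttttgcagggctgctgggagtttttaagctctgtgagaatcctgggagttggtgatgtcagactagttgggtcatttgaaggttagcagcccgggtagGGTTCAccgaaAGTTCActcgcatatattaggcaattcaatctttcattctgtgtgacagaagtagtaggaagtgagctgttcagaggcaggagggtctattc
BATF2, chr11:64990228-64990527, minus strand: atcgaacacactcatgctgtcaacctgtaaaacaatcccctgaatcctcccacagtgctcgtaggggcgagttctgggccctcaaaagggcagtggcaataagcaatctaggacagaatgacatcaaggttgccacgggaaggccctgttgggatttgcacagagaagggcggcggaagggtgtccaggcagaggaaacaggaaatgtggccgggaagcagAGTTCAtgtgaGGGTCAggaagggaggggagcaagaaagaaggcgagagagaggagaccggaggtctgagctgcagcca
BTBD19, chr1:44808273-44808572, plus strand: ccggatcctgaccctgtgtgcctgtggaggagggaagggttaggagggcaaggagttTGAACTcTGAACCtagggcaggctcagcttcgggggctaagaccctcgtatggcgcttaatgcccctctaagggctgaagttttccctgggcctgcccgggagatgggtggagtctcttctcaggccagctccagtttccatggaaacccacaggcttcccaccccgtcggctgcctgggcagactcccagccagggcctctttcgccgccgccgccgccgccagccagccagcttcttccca
CCL24, chr7:75823323-75823622, minus strand: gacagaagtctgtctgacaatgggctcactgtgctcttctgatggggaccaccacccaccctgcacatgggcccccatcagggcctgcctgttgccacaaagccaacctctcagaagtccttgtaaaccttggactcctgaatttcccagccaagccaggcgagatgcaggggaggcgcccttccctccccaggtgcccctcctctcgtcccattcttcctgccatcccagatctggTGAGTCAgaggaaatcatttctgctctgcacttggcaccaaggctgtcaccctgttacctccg
FPR1, chr19:51751829-51752128, minus strand: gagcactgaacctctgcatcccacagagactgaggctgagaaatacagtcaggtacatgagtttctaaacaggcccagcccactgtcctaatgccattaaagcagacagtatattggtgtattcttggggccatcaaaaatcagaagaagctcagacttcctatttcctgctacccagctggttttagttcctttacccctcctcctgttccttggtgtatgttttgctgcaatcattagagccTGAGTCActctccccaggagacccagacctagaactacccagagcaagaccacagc

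The RARB pair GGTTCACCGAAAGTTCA, which begins at position -53 from the start, is the well-known RARE of the retinoic acid receptor beta promoter. BATF2 has its hexamers with the same spacing of 5 bases from position -29, and BTBD19 has them 1 base apart on the opposite strand. The AP-1 letters begin at -13 in CCL24 and at -6 in FPR1. The windows of RARB, BATF2 and FPR1 lie inside the GENCODE v44 span of their gene, so the start used is an internal one. For BATF2 this span is chr11:64987945-64997018 on the minus strand. A match of letters is a description and not a measured binding site.

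Pairs counted on genes ranged from 9708739 to 33017787 over the 8 libraries, and from 9708739 to 16882512 over the 4 that received ATRA. At the depth of the treated libraries, 2 CPM stood for 19.4 to 33.8 read pairs. From 8.49% to 9.62% of the pairs lay outside genes in the 4 untreated libraries and in replicate 1 of scramble+ATRA, against 50.02% to 51.4% in replicate 2 of scramble+ATRA and in both shKDM3B+ATRA libraries. The scramble+ATRA replicates therefore stood on either side of this split, and results of the comparison are also given without replicate 1. The untreated and treated files list different sets of names, 56470 and 56609. KDM3B was at 190 and 113 CPM in scramble+ATRA and at 51.3 and 55.3 CPM in shKDM3B+ATRA (log2 fold change -1.53, SE 0.29, edgeR adjusted p = 0.502, and -1.13 without scramble+ATRA replicate 1). The 8 promyelocyte markers summed to 1023 and 830 CPM in scramble+ATRA and to 3315 and 2420 CPM in shKDM3B+ATRA, with MPO the most abundant. In the untreated libraries their sums ran from 4623 to 9745 CPM. MPO was at 4329 and 5383 CPM in untreated scramble and at 8348 and 9395 CPM in untreated shKDM3B. Of the list, PML (131 and 136 CPM) and CD33 (94.4 and 92.8 CPM) had close means in scramble+ATRA and shKDM3B+ATRA. RARA had means of 58.4 and 35.4 CPM. The 8 granulocytic markers, which include FPR1 of the 109 genes, summed to 4280 and 3716 CPM in scramble+ATRA and to 2037 and 2398 CPM in shKDM3B+ATRA. Erythroid markers summed to at most 0.721 CPM, with HBB and HBA1 at 0, and T and NK cell, fibroblast and endothelial markers to at most 1.63 CPM. B cell markers summed to between 6.33 and 24.3 CPM with MS4A1 at 0, megakaryocyte markers to between 1.85 and 7.91 CPM with PF4 at 0, and epithelial markers to between 17.9 and 24.6 CPM with CDH1 at 0. The part of the split and of these marker levels in the results was not tested.

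The word silent holds for the chosen limit more than for an absence of reads. Only 6 of the 109 genes had 0 read pairs in all 4 untreated libraries: CRISP3, TNNI2, DAAM2, FOLR3, SH2D1B and SIGLEC16. A further 24 reached at most 3 pairs, which makes 30 with 3 or fewer, 70 had 10 or fewer and 39 had between 11 and 20. In the untreated libraries the limit of 20 pairs corresponded to 0.606 to 1.03 CPM. The 109 genes together held 15.6 to 31.1 CPM in the untreated libraries. They held 1593 and 1828 CPM in scramble+ATRA, and 788 and 903 CPM in shKDM3B+ATRA. The 5 genes with most read pairs, among them HK3, CYP4F3, LSP1 and HIC1, made up 40.2% of the scramble+ATRA sum. The 10 genes with 0 pairs in both scramble libraries could be given only a lower bound, computed against 3 counts over the group. By this bound CRISP3, the secreted protein of neutrophil specific granules, was at least 167-fold higher in scramble+ATRA, and FOLR3, a secreted folate receptor of neutrophil granules, at least 56.7-fold higher.

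**Figure D1:**
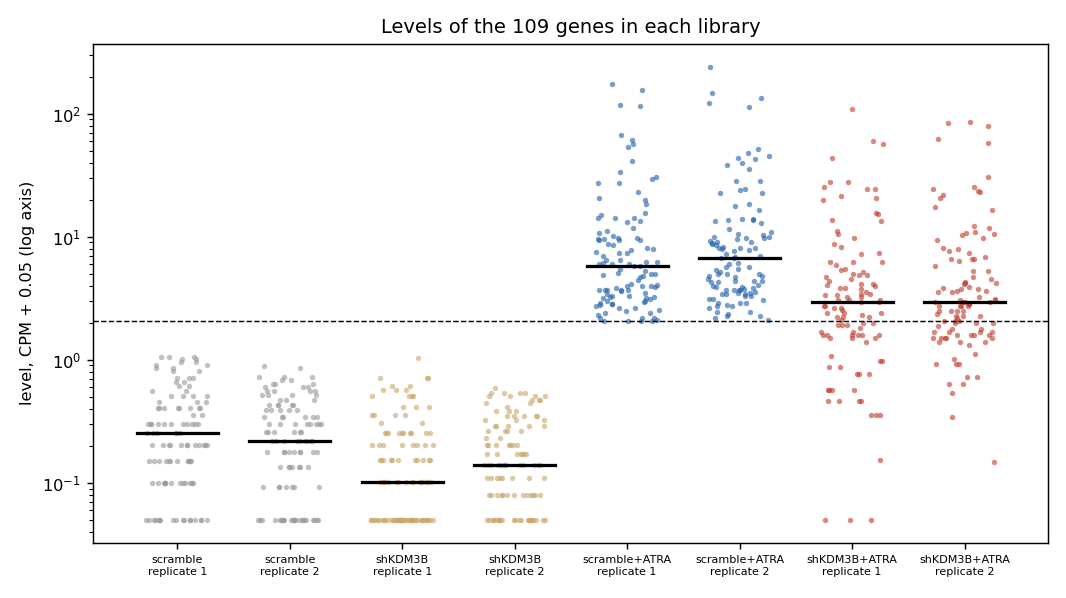
Levels of the 109 genes in each of the 8 libraries (CPM plus 0.05, log axis), with 1 point per gene, the median as a black bar and the 2 CPM minimum as a dashed line. The untreated and scramble+ATRA points are separated by the rule itself, and 30 of the 109 genes lie below 2 CPM in both shKDM3B+ATRA libraries.

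At the edge of the rule, OAS1, PFKFB2 and GLDN were just inside the ATRA minimum, each with 2.01 CPM in the lower scramble+ATRA library. SSPN, named here after its values were seen, was tied with them. TRGV5P, LINC01554 and BACH2 were just outside it with 1.98 CPM. At the untreated limit, 4 genes stood at exactly 20 pairs and 4 other names at 21 that otherwise met the rule. Thus the border runs through a continuous range of low values, and 18 names lay between 21 and 25 pairs.

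In the shKDM3B cells, ATRA left most of these genes at lower levels than in the scramble cells. The median level of the 109 genes was 6.34 CPM in scramble+ATRA and 2.82 CPM in shKDM3B+ATRA, and the median gene stood at 45.4% of its scramble+ATRA mean (quartiles 25.6% and 74.6%). For 27 genes the shKDM3B+ATRA mean was under 25% of the scramble+ATRA mean, for 35 it was 25% to 50%, for 35 between 50% and 100%, and for 12 it was above. In both shKDM3B+ATRA libraries 63 genes (57.8%) reached 2 CPM, in 1 of them 16 and in neither 30. Of the 10211 names at 2 CPM or more in both scramble+ATRA libraries, whatever their untreated level, 96.9% reached it in both shKDM3B+ATRA libraries. Those names were not matched to the 109 genes in level. Because the rule asked for a minimum in scramble+ATRA and not in shKDM3B+ATRA, it favours a fall, and the calls are to be read against the shares of all genes given with them.

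Of the 109 genes, 51 were called lower in shKDM3B+ATRA and 1, CRISP3, higher, at an unadjusted edgeR P under 0.05 and a change of at least 1.5-fold. In this comparison 4.37% of the 14281 genes tested were called lower and 2.42% higher. The fitted log2 fold changes were negative for 98 of the 109 genes and ran from -5.71 to 3.05, with a median of -1.17 against 0.03 over all genes tested. With CPM scaled by the TMM factors of edgeR (a correction for library composition), both shKDM3B+ATRA libraries were below both scramble+ATRA libraries for 82 of the genes, against 23.5% of all genes tested. With the CPM printed here, which are scaled to library size alone, this held for 80 genes, since F5 and SIGLEC16 then overlap. They were above them for 3 genes (CRISP3, SOCS3 and RGL4), against 26.1%. After Benjamini-Hochberg adjustment over all genes, no gene passed 0.05 in edgeR (0 of 14281). The smallest adjusted p was 0.502, while 52 of the 109 genes and 1383 of all genes had an unadjusted P under 0.05. DESeq2 with the same adjustment called 28 of the genes lower and 1 higher, against 1.92% lower and 0.925% higher of 13624 genes.

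The number of calls moved with single libraries more than the median did. Without scramble+ATRA replicate 1, so that the 3 remaining libraries had like shares of pairs outside genes, 74 genes were called lower (background 8.19%) and 3 higher (CRISP3, SOCS3 and CACNA1D, background 8.78%), and 50 of the 51 remained lower. In that fit the lone scramble+ATRA library was assumed to vary like the other group. Without scramble+ATRA replicate 2, 65 genes were called lower (background 13.3%) and 7 higher (background 23.2%). Without shKDM3B+ATRA replicate 1, 16 genes were called lower (background 0.624%) and 1 higher (background 0.265%). Without shKDM3B+ATRA replicate 2, 30 were called lower (background 1.45%) and 1 higher (background 0.438%). Over these 4 fits, the median log2 fold change stayed between -1.26 and -1.07. The sign was negative for 87 genes and positive for 3 in all 4 of these fits, and it changed for 19.

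**Figure D2:**
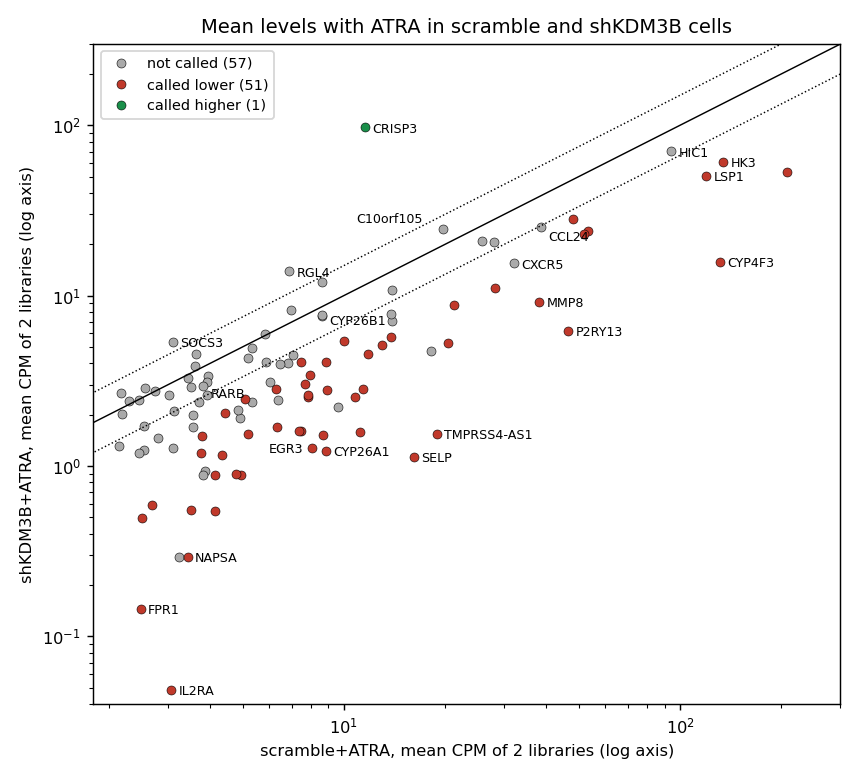
Mean level of each of the 109 genes in shKDM3B+ATRA against scramble+ATRA (CPM, mean of 2 libraries, log axes), with equality as a solid line and 1.5-fold changes as dotted lines. The 51 genes called lower lie below the lines at all levels, and CRISP3 lies alone well above them.

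Other genes that ATRA raised were compared next. The 107 names with more than 20 pairs in an untreated library that were at least 8-fold higher in scramble+ATRA than in scramble had 43 called lower and 0 higher, against the 4.37% and 2.42% of all genes. This count was 56 lower and 20 higher without scramble+ATRA replicate 2 (backgrounds 13.3% and 23.2%) and 17 lower without shKDM3B+ATRA replicate 1. Their median log2 fold change was -0.56, with a median of 69.7% of the scramble+ATRA level. Both sets were chosen for high values in the scramble+ATRA libraries, and the difference between their medians was not tested. Within the 109 genes, those with 10 CPM or more in scramble+ATRA had 21 of 32 called lower, and those under 5 CPM had 14 of 45, again beside 4.37% of all genes. Without shKDM3B+ATRA replicate 1 these were 9 and 4, and without scramble+ATRA replicate 1 they were 25 and 24. Counts with 1 library left out stand beside the shares of all genes in the same fit, given above, and not beside 4.37%. With all 4 libraries, the median log2 fold changes of the genes at 10 CPM or more and under 5 CPM were -1.28 and -1.06. The 30 genes with 3 or fewer untreated pairs had 14 called lower (5 without shKDM3B+ATRA replicate 1) and a median of -1.10, close to that of the whole set.

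The roles used next were assigned by hand after the values were known, so their counts are a description. The share called lower was 46.8% over the 109 genes and 4.37% over all genes tested, and 2.42% of all genes were called higher. With all 4 libraries, the calls in the groups and lists that follow stand beside these shares. Calls with 1 library left out stand beside the shares of all genes in the same fit, given above. Counts of genes with both shKDM3B+ATRA libraries below both scramble+ATRA libraries use the TMM-scaled CPM and stand beside 23.5% of all genes and 82 of the 109. Of the 51 genes called lower, 16 were called lower in each of the 4 fits with 1 library left out, and 35 lost the call in at least 1. HK3, CYP4F3, LSP1, P2RY13, MMP8, TMPRSS4-AS1, SELP, CYP26A1, EGR3, CYP4F12, NAPSA and IL2RA were among the 16. SEMA6B alone lost it without scramble+ATRA replicate 1, and all 35 lost it without shKDM3B+ATRA replicate 1. Of the genes described next, RARRES3, CEACAM1, LRRC32, SEMA6B, CCR3, PLIN4, KCNH4, FXYD6, TRPM4, PKD2L1, ID1 and DAPK2 also lost it without shKDM3B+ATRA replicate 2, whereas SERPINB2, ADAMTS14, GDF15, PLIN5 and FPR1 were still called in that fit. Each called gene had an adjusted p between 0.502 and 0.514 in edgeR, and where a p is printed for a single gene it is the adjusted p from DESeq2, beside the fold change and SE from edgeR. A call always means the unadjusted edgeR threshold above.

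Genes of the retinoid response itself were unequal. CYP26A1 and CYP26B1 encode cytochrome P450 enzymes that clear retinoic acid and are classical targets of the receptors. CYP26A1 was at 9.65 and 8.09 CPM in scramble+ATRA and at 0.412 and 2.04 CPM in shKDM3B+ATRA, a fall of 7.29-fold (log2 fold change -2.87, SE 0.87, DESeq2 adjusted p = 0.0484). With 1 shKDM3B+ATRA library left out its log2 fold change lay between -4.43 and -2.13. CYP26B1 was at 9.36 and 7.83 CPM in scramble+ATRA and at 4.53 and 11.0 CPM in shKDM3B+ATRA, and the groups overlapped (log2 fold change -0.17, SE 0.53). RARRES3, a retinoid-inducible phospholipase-like tumor suppressor, fell from 18.4 and 24.2 CPM to 7.31 and 10.4 CPM (2.45-fold, log2 fold change -1.29, SE 0.33, DESeq2 adjusted p = 0.0454). RARB, the receptor whose RARE is shown above and which was chosen for that after its values were seen, was at 2.72 and 4.90 CPM in scramble+ATRA and at 3.50 and 2.42 CPM in shKDM3B+ATRA, with no call. Of the wider list of 27 retinoid genes, 17 were tested, and 5 were called lower and 0 higher. With 1 library left out, this list had 8 and 9 lower without scramble+ATRA replicates 1 and 2 (1 higher in the latter) and 2 and 3 without shKDM3B+ATRA replicates 1 and 2. The list holds 5 of the 109 genes, the 4 named above and HIC1. Only CYP26A1 and RARRES3 of these were called lower. RARRES3 lost the call without shKDM3B+ATRA replicate 1 (log2 fold change -1.05) and without replicate 2 (-1.58). Of the 12 tested genes of the list outside the 109, 3 were called lower.

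Adhesion and cell surface proteins held 13 genes, of which 7 were called lower and 0 higher (median log2 fold change -0.80). SELP encodes P-selectin, which platelets and endothelium use to bind leukocytes, and it had at most 1 pair in any untreated library. SELP was at 14.1 and 18.3 CPM in scramble+ATRA and at 0.515 and 1.74 CPM in shKDM3B+ATRA, 14.5-fold lower (log2 fold change -3.85, SE 0.74, DESeq2 adjusted p = 1.64e-05). With 1 shKDM3B+ATRA library left out its log2 fold change ran from -4.99 to -3.23. CEACAM1, an adhesion molecule of granulocytes, was 2.56-fold lower, at 15.7 and 10.3 CPM against 3.81 and 6.49 CPM (log2 fold change -1.36, SE 0.43, DESeq2 adjusted p = 0.181). LRRC32, which anchors latent TGF-β, was 2.20-fold lower, at 4.62 and 4.22 CPM against 1.85 and 2.23 CPM (log2 fold change -1.14, SE 0.34, DESeq2 adjusted p = 0.397). SEMA6B, a transmembrane semaphorin, fell 1.74-fold, from 56.3 and 39.6 CPM to 25.4 and 30.5 CPM (log2 fold change -0.80, SE 0.24, DESeq2 adjusted p = 0.167). SH2D1B, an adaptor of SLAM receptors, and SIGLEC16, a sialic acid receptor with a close paralog that could share its reads, had 0 untreated pairs and no call, at 64.1% and 82.8% of their scramble+ATRA levels. All 13 genes had a negative log2 fold change, and in 12 by TMM-scaled CPM (11 by library size alone) both shKDM3B+ATRA libraries were below both scramble+ATRA libraries, against 23.5% of all genes. The number called lower was 6 without scramble+ATRA replicate 1 and 3 with replicate 1 or replicate 2 of shKDM3B+ATRA left out.

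Among the 8 chemoattractant, nucleotide and related G protein-coupled receptors, 4 were called lower (median log2 fold change -1.69), 7 without scramble+ATRA replicate 1 and 2 without shKDM3B+ATRA replicate 1. In all 8, both shKDM3B+ATRA libraries were below both scramble+ATRA libraries, against 23.5% of all genes. P2RY13, an ADP receptor, was at 41.5 and 51.7 CPM in scramble+ATRA and 6.18 and 6.30 CPM in shKDM3B+ATRA (7.61-fold lower, log2 fold change -2.93, SE 0.23, DESeq2 adjusted p = 1.29e-18). FPR1, the receptor by which neutrophils sense formylated bacterial peptides, was at 2.13 and 2.84 CPM in scramble+ATRA and at 0 and 0.291 CPM in shKDM3B+ATRA. These were 69 pairs against 3, a ratio of 16.2-fold with an exact 95% interval of 5.30 to 80.3 that covers counting error only (DESeq2 adjusted p = 0.118). Its neighbor FPR2, named here after its values were seen, was at 2.78 and 3.70 CPM in scramble+ATRA and at 0 and 0.582 CPM in shKDM3B+ATRA, with no call. CCR3, the eotaxin receptor, was 2.21-fold lower (DESeq2 adjusted p = 0.118). GPR34, a lysophosphatidylserine receptor, and CXCR5, the receptor of CXCL13, were at 56.7% and 48.2% of their scramble+ATRA levels without a call. In the wider list of 45 receptors, 27 were tested, 10 were called lower and 1, CYSLTR1, higher. Leaving out scramble+ATRA replicates 1 and 2 in turn gave 17 and 12 lower with 4 higher each, and leaving out shKDM3B+ATRA replicates 1 and 2 gave 3 and 8 lower with 0 higher.

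Cytokines and their receptors gave 4 calls of lower in 8 genes (median log2 fold change -1.29), 7 without scramble+ATRA replicate 1 and 1 without shKDM3B+ATRA replicate 1. IL2RA, the alpha chain of the interleukin-2 receptor, showed the largest fall of the 109 genes. It was at 2.61 and 3.53 CPM in scramble+ATRA and at 0 and 0.0969 CPM in shKDM3B+ATRA, 85 pairs against 1. The counting ratio was 59.7-fold (exact 95% interval 10.4 to 2390, counting error only), with a call in edgeR (DESeq2 adjusted p = 0.0242). GDF15, a stress-induced TGF-β family cytokine, fell 4.72-fold, from 3.14 and 5.16 CPM to 0.412 and 1.36 CPM (log2 fold change -2.24, SE 0.76, DESeq2 adjusted p = 0.236). Without shKDM3B+ATRA replicate 1 its log2 fold change was -1.62 with no call, and without replicate 2 it was -3.34. TNFSF15, a TNF family ligand, was at 24.2% of its scramble+ATRA level and missed the threshold in edgeR. CCL24, the chemokine eotaxin-2 and a ligand of CCR3, was at 29.5 and 47.8 CPM in scramble+ATRA and at 27.9 and 23.0 CPM in shKDM3B+ATRA, with no call. IL12RB1, a chain of the interleukin-12 and -23 receptors, was at 61.5% without a call. SOCS3, the feedback inhibitor of cytokine signaling, was one of the 3 genes higher in both shKDM3B+ATRA libraries, at 5.46 and 5.23 CPM against 3.38 and 2.84 CPM, and it is named here after its values were seen.

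Granule and secreted proteins included both the only gene called higher and some of the largest falls. Of 12 genes, 5 were called lower and 1 higher (median log2 fold change -1.97). The count of lower calls was 8 with replicate 1 or replicate 2 of scramble+ATRA left out and 3 without shKDM3B+ATRA replicate 1. MMP8, neutrophil collagenase of the specific granules, was at 30.7 and 45.4 CPM in scramble+ATRA and at 8.65 and 9.69 CPM in shKDM3B+ATRA (4.24-fold lower, log2 fold change -2.08, SE 0.30, DESeq2 adjusted p = 4.14e-06). CRISP3, of the same granules, moved the other way, at 9.48 and 13.6 CPM in scramble+ATRA and 109 and 85.3 CPM in shKDM3B+ATRA. This was 8.26-fold higher (log2 fold change 3.05, SE 0.29, DESeq2 adjusted p = 1.29e-18), between 2.79 and 3.35 with each library left out, and called in each of those fits. CRISP3 had 0 pairs in the untreated libraries of both lines. NAPSA, an aspartic protease, fell 11.4-fold, from 3.26 and 3.61 CPM to 0.103 and 0.485 CPM (log2 fold change -3.52, SE 0.81, DESeq2 adjusted p = 0.0398, between -4.97 and -2.82 with 1 shKDM3B+ATRA library left out). Exons cover 33.0% of its exon bases on the opposite strand, the largest part of them exons of NR1H2. SERPINB2, plasminogen activator inhibitor type 2, fell 5.74-fold, from 7.46 and 9.89 CPM to 0.927 and 2.13 CPM (log2 fold change -2.52, SE 0.57, DESeq2 adjusted p = 0.014). ADAMTS14, a procollagen protease, fell 3.93-fold, from 23.1 and 17.8 CPM to 2.99 and 7.56 CPM (log2 fold change -1.98, SE 0.57, DESeq2 adjusted p = 0.0392). Without shKDM3B+ATRA replicate 1 both lost the edgeR call, at log2 fold changes of -2.04 and -1.45, and without replicate 2 these were -3.25 and -2.80. FOLR3 was at 79.0% of its scramble+ATRA level and MPEG1, a pore-forming protein of phagocytes, at 48.5%, both without a call. Coagulation factor F5 was at 19.9 CPM in scramble+ATRA replicate 1 but 7.92 CPM in replicate 2, next to 6.18 and 7.95 CPM in shKDM3B+ATRA. The acute-phase proteins ORM1 and ORM2, named here after their values were seen, are near-identical copies that may share reads, and ORM1 alone was called lower. In the list of 34 neutrophil granule and membrane genes, 19 were tested, 8 were called lower and 1, CRISP3, higher. Those lower were 4 without shKDM3B+ATRA replicate 1 and 3 without replicate 2.

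Metabolic and lipid enzymes gave 7 calls of lower and 0 of higher in 8 genes (median log2 fold change -1.82), with 3 lower without shKDM3B+ATRA replicate 1 and 4 without replicate 2. CYP4F3 is the leukotriene B4 omega-hydroxylase of neutrophils, which inactivates this chemoattractant. CYP4F3 was at 115 and 147 CPM in scramble+ATRA and at 15.2 and 16.4 CPM in shKDM3B+ATRA, 8.48-fold lower (log2 fold change -3.08, SE 0.20, DESeq2 adjusted p = 8.80e-31). Its relative CYP4F12 fell 6.43-fold, from 3.67 and 3.36 CPM to 0.515 and 0.582 CPM (log2 fold change -2.68, SE 0.40, DESeq2 adjusted p = 0.0339). HK3, the hexokinase of myeloid cells, fell less, from 155 and 114 CPM to 59.8 and 62.0 CPM (2.24-fold, log2 fold change -1.17, SE 0.18, DESeq2 adjusted p = 1.71e-04). The lipid droplet proteins PLIN5 and PLIN4 were 3.27-fold and 3.80-fold lower (DESeq2 adjusted p = 0.0503 and adjusted p = 0.0479). PFKFB2, which sets the level of a fructose bisphosphate activator of glycolysis, was at 2.01 and 3.10 CPM in scramble+ATRA and at 2.16 and 3.59 CPM in shKDM3B+ATRA. In a list of 37 lipid and cytochrome P450 genes, the 19 tested genes outside the 109 had 4 called lower and a median log2 fold change of -0.13. In the whole list 23 were tested and 8 were called lower, among them all 4 members of the 109. Without scramble+ATRA replicates 1 and 2 the lower calls were 12 and 10 (5 higher in the latter), and without shKDM3B+ATRA replicates 1 and 2 they were 2 and 6.

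**Figure D3:**
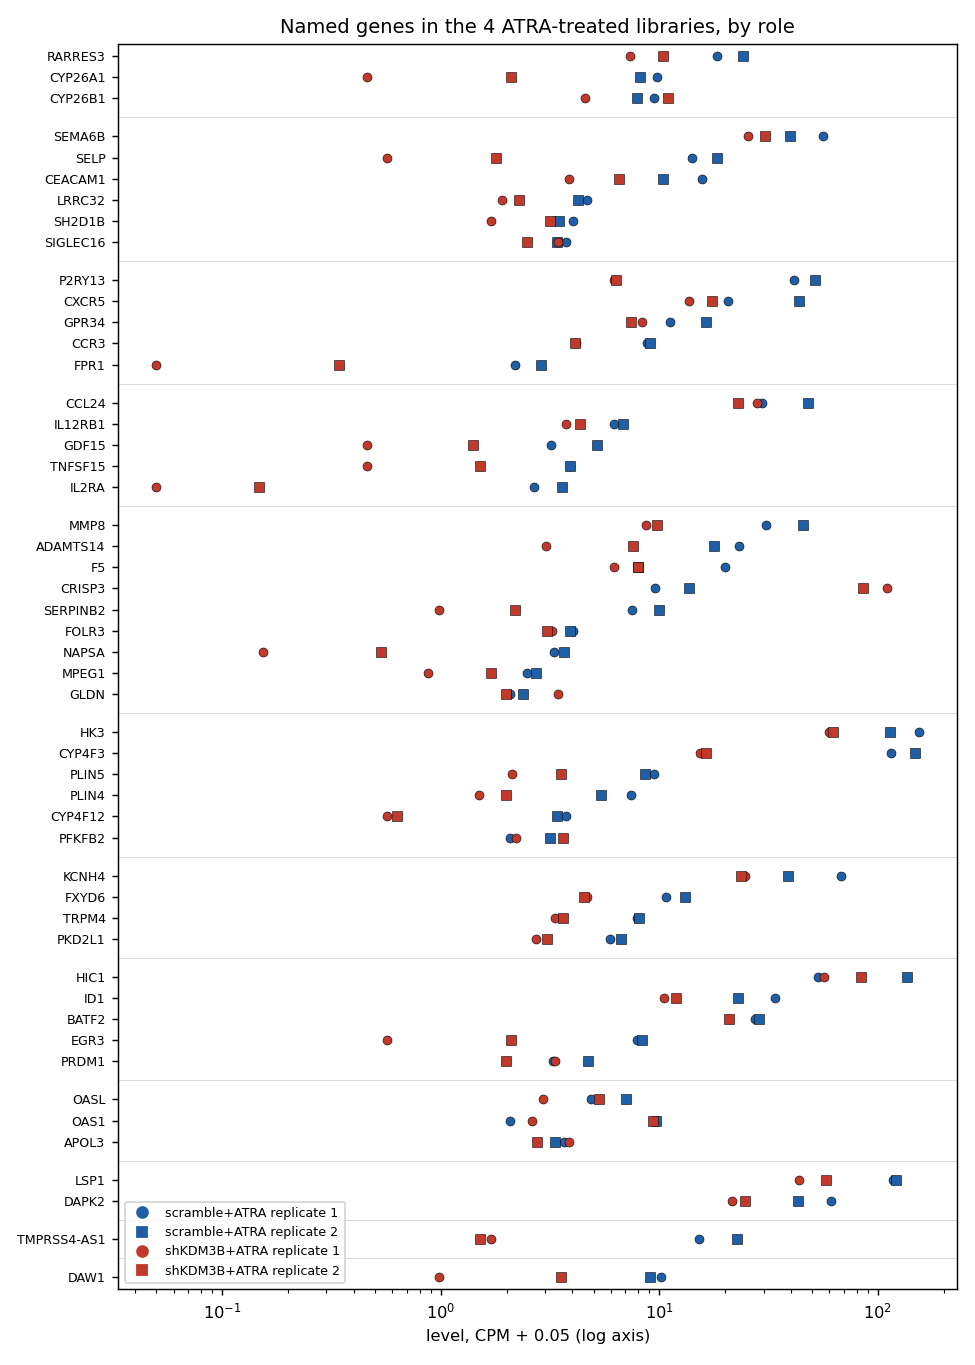
Levels of 50 of the genes named by rule in each of the 4 ATRA-treated libraries (CPM plus 0.05, log axis), blue for scramble+ATRA, red for shKDM3B+ATRA, circles for replicate 1 and squares for replicate 2, in blocks by role. Most red points lie left of the blue ones, CRISP3 lies right of them, and FPR1 and IL2RA have a red circle at 0 CPM.

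Channels and transporters were called lower in 6 of 8 genes and higher in 0 (median log2 fold change -1.21). Without shKDM3B+ATRA replicate 1 the number was 0, and without replicate 2 it was 2. KCNH4, a voltage-gated potassium channel, fell from 67.6 and 38.6 CPM to 24.5 and 23.6 CPM (2.25-fold, log2 fold change -1.17, SE 0.32, DESeq2 adjusted p = 0.057). FXYD6, a regulator of the sodium pump, ended at 38.4% of its scramble+ATRA level, a fall of 2.65-fold (DESeq2 adjusted p = 0.0242). TRPM4 and PKD2L1, both cation channels, were 2.35-fold and 2.25-fold lower (DESeq2 adjusted p = 0.114 and adjusted p = 0.239). In the list of 36 channel and transporter genes, 28 were tested and 7 were called lower, 5 of them among the 109 genes, and the median of the 23 others was 0.23. Its calls were 10 lower and 1 higher without scramble+ATRA replicate 1, 10 lower and 13 higher without replicate 2, and 0 and 3 lower without shKDM3B+ATRA replicates 1 and 2.

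Of 8 transcription factors, 4 were called lower and 0 higher (median log2 fold change -0.76), 6 without scramble+ATRA replicate 1 and 1 with replicate 1 or replicate 2 of shKDM3B+ATRA left out. EGR3, an immediate-early zinc finger factor, was at 7.82 and 8.26 CPM in scramble+ATRA and at 0.515 and 2.04 CPM in shKDM3B+ATRA (6.35-fold lower, log2 fold change -2.67, SE 0.78, DESeq2 adjusted p = 0.0501, between -3.97 and -1.99 with 1 shKDM3B+ATRA library left out). ID1, an inhibitor of basic helix-loop-helix factors, fell from 33.7 and 22.8 CPM to 10.4 and 11.8 CPM (2.58-fold, log2 fold change -1.37, SE 0.28, DESeq2 adjusted p = 0.0106). HIC1, a zinc finger repressor and known retinoid target, was at 53.3 and 135 CPM in scramble+ATRA and at 56.9 and 83.8 CPM in shKDM3B+ATRA, so that the groups overlapped. Exons on the opposite strand cover 29.8% of the HIC1 exon bases, the largest part of them exons of SMG6. SMG6 was at 146 and 142 CPM in scramble+ATRA and at 61.4 and 77.5 CPM in shKDM3B+ATRA. The part of this overlap in the HIC1 levels was not tested. BATF2, whose promoter pair is shown above, was at 27.4 and 28.4 CPM in scramble+ATRA and at 20.7 CPM in both shKDM3B+ATRA libraries, and it missed the threshold. PRDM1, the repressor Blimp-1, also had no call. In the list of 30 transcription factors, 22 were tested, 7 were called lower and 1, TFEC, higher. The lower calls became 9 and 12 without scramble+ATRA replicates 1 and 2 (4 higher in the latter) and 1 and 2 without shKDM3B+ATRA replicates 1 and 2.

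Interferon-inducible and apolipoprotein L genes gave 0 calls in 5 genes in edgeR, with 0 of the 5 under 0.05 by unadjusted P in edgeR or DESeq2 (median log2 fold change -0.39). Without scramble+ATRA replicate 1 edgeR called 3 of the 5 lower (background 8.19%), OASL (log2 fold change -0.82), OAS1 (-0.73) and C19orf66 (-1.29). OASL, a protein related to the oligoadenylate synthetases, was at 69.0% of its scramble+ATRA level, and APOL3, an intracellular antimicrobial protein, at 94.8%. OAS1, which makes the activator of RNase L, was the higher in replicate 2 of both lines, at 2.01 and 9.64 CPM in scramble+ATRA and 2.58 and 9.30 CPM in shKDM3B+ATRA. Its log2 fold change was -0.73 without scramble+ATRA replicate 1 and 1.56 without replicate 2, past the call threshold in opposite directions. In the list of 30 interferon-stimulated genes, 24 were tested and 3 were called lower and 0 higher. This became 9 lower without scramble+ATRA replicate 1, 4 lower and 5 higher without its replicate 2, and 0 with replicate 1 or replicate 2 of shKDM3B+ATRA left out. Whether the interferon genes differ from the other groups was not tested.

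Of 14 intracellular signaling and cytoskeletal genes, 6 were called lower and 0 higher, and without shKDM3B+ATRA replicates 1 and 2 this was 1 and 2 lower. LSP1, an actin-binding protein of leukocytes, fell from 118 and 122 CPM to 43.5 and 57.6 CPM (2.41-fold, log2 fold change -1.27, SE 0.19, DESeq2 adjusted p = 2.73e-05). The kinase gene DAPK2 fell from 61.0 and 42.8 CPM to 21.4 and 24.6 CPM (2.29-fold, log2 fold change -1.20, SE 0.24, DESeq2 adjusted p = 0.00682). Among 9 non-coding, antisense and pseudogene names 3 were called lower, 7 without scramble+ATRA replicate 1 and 1 without shKDM3B+ATRA replicate 1. TMPRSS4-AS1 is in this group by its name alone, since GENCODE v44 lists it as the protein-coding gene SMIM35. TMPRSS4-AS1 was at 15.1 and 22.7 CPM in scramble+ATRA and at 1.65 and 1.45 CPM in shKDM3B+ATRA (12.4-fold lower, log2 fold change -3.63, SE 0.37, DESeq2 adjusted p = 1.35e-09). Of the 12 other proteins 3 were called lower, 7 without scramble+ATRA replicate 1, 6 (and 3 higher) without its replicate 2 and 0 without shKDM3B+ATRA replicate 1. DAW1, an axonemal dynein assembly factor, was at 10.1 and 9.03 CPM in scramble+ATRA and at 0.927 and 3.49 CPM in shKDM3B+ATRA and just missed the threshold in edgeR. Of the 49 axoneme and cilium genes listed with it, 22 were tested (median log2 fold change 0.61) and 0 were called in either direction or had an unadjusted P under 0.05 in edgeR, while 1, DAW1, passed without adjustment in DESeq2 (adjusted p = 0.149). Without scramble+ATRA replicate 1 edgeR called 2 of the list lower and 3 higher (backgrounds 8.19% and 8.78%), and without replicate 2 it called 3 lower and 13 higher (backgrounds 13.3% and 23.2%).

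**Figure D4:**
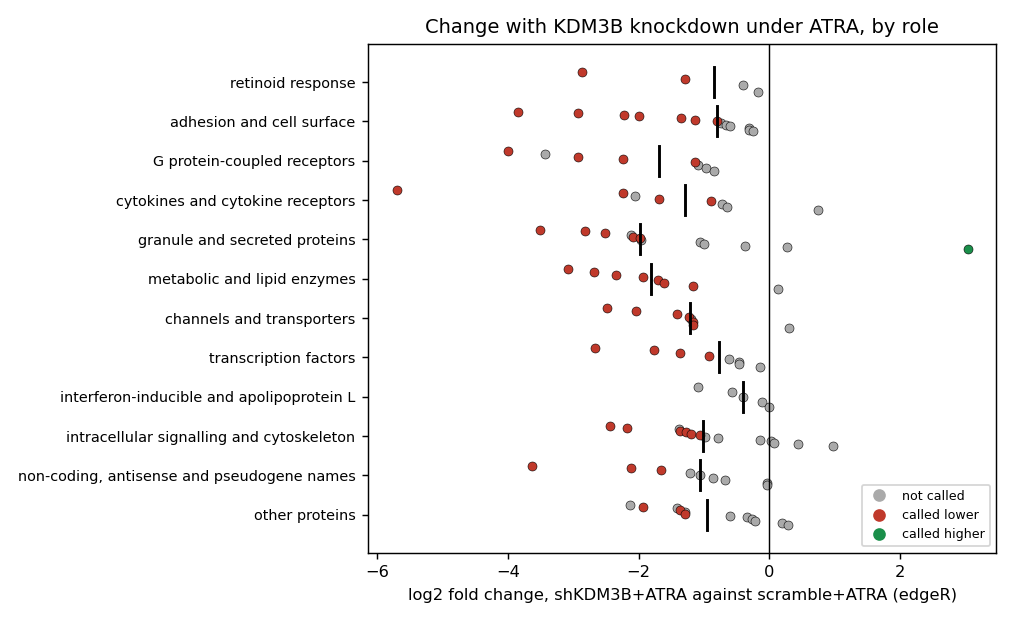
Log2 fold change of each of the 109 genes in shKDM3B+ATRA against scramble+ATRA (edgeR), in rows by role with the median as a black bar, red for genes called lower and green for the gene called higher. The medians of all 12 groups are below 0, from -1.97 for granule and secreted proteins to -0.39 for the interferon-inducible group.

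The shKDM3B+ATRA replicates were themselves unequal for many of these genes. Replicate 2 was above replicate 1 for 70 of the 109 genes (64.2%), against 48.2% of the 10211 names at 2 CPM in both scramble+ATRA libraries. The 2 replicates differed by more than 2-fold for 28 genes (25.7%), against 1.58% of those names, which were not matched in level. In 24 of the 28 replicate 2 was the higher. SELP, CYP26A1, EGR3 and DAW1 were among these 24. Beside this, the promyelocyte marker sum was lower in replicate 2 (2420 against 3315 CPM), and most of it was MPO (2142 against 3059 CPM). Of the same list, CD33 (96.2 against 89.4 CPM), PML (138 against 133 CPM) and RARA (41.4 against 29.5 CPM) were higher in replicate 2. The granulocytic marker sum was higher in replicate 2 (2398 against 2037 CPM), with ITGAM of that list at 102 CPM in both.

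In scramble+ATRA, 12 of the 109 genes (11.0%) differed by more than 2-fold between the replicates, against 6.34% of all 10211 names at 2 CPM in both. Replicate 2, in which 50.02% of the pairs lay outside genes, was the higher for 9 of them: HIC1, CXCR5, C10orf105, CLC, SPATA9, TRIM46, CPSF4L, RGL4 and OAS1. Replicate 1 was the higher for F5, DAAM2 and CACNA1D. Exons on the opposite strand covered over 50% of the exon bases of 3 of the 109 genes, and all 3 were in this set. These were CXCR5 (91.1%, BCL9L), C10orf105 (71.7%, CDH23) and RGL4 (52.3%, GUSBP11). C10orf105 was at 4.09 and 35.4 CPM in scramble+ATRA, 8.65-fold apart, and at 24.2 and 25.2 CPM in shKDM3B+ATRA, between the scramble+ATRA replicates. The strand setting of the counting is not given in the sources used here, and without strand the pairs of such a gene and its partner cannot be told apart. In scramble+ATRA, BCL9L was at 51.5 and 50.3 CPM, CDH23 at 95.2 and 68.3 CPM and GUSBP11 at 0.0592 and 0.086 CPM. In shKDM3B+ATRA, BCL9L was at 27.8 and 24.7 CPM, CDH23 at 36.5 and 43.1 CPM and GUSBP11 at 0 CPM. RGL4 was at 2.90 and 10.8 CPM in scramble+ATRA and at 15.6 and 12.2 CPM in shKDM3B+ATRA. The part of the strand setting in these values was not tested.

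**Figure D5:**
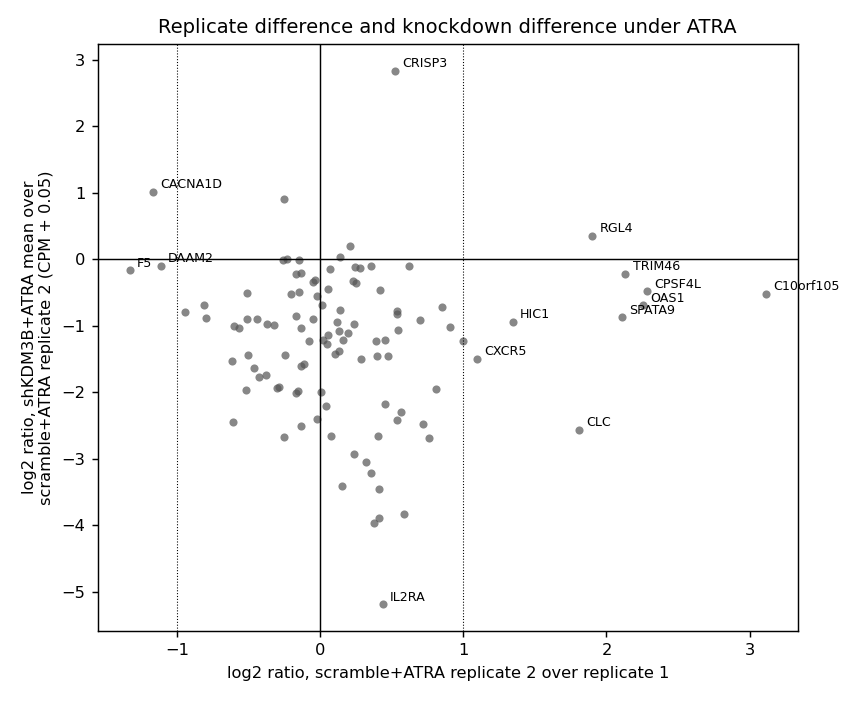
Log2 ratio of scramble+ATRA replicate 2 over replicate 1 (horizontal) against the log2 ratio of the shKDM3B+ATRA mean over scramble+ATRA replicate 2 (vertical, CPM plus 0.05) for the 109 genes, with dotted lines at 2-fold between replicates. The 9 genes right of the dotted line and the 3 left of it are labelled, and most of the genes between the lines lie below 0.

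All 109 names were found in GENCODE v44 (hg38), 4 of them through a RefSeq synonym, on 21 chromosomes, and 101 were annotated as protein-coding. Their exons overlapped an exon on the opposite strand in 38 cases. For the protein-coding ones the share was 33.7%, against 36.7% of all protein-coding names in the 8 libraries. The 65 genes without exon overlap on either strand had 29 called lower (10 without shKDM3B+ATRA replicate 1), 1 higher and a median log2 fold change of -1.20, near the -1.17 of the whole set. SELP lies on chromosome 1 from 169588849 to 169630193 on the minus strand. CYP4F3 lies on chromosome 19 from 15640897 to 15662825 on the plus strand. CRISP3 lies on chromosome 6 from 49727376 to 49744437 and IL2RA on chromosome 10 from 6010689 to 6062370, both on the minus strand.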

How the data were processed

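RNA-seq of 8 NB4 libraries was analysed, 2 each of scramble, shKDM3B, scramble+ATRA and shKDM3B+ATRA, grouped by their labels. Libraries were made with a TruSeq RNA kit. Per the labels and the methods of the study, the authors used Trim Galore for trimming, HISAT2 for alignment (hg38) and HTSeq for counting. A RefSeq annotation is named there, but the gene names are of GENCODE style. Tool versions and the strand setting are not given in the sources used here. The deposited files hold raw counts per gene without normalization, and their summary rows for unassigned reads (8.49% to 51.4% of pairs outside genes) stayed out of totals and tests. The reads carry no molecular identifiers, so intervals and floors cover counting error only.

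The shKDM3B+ATRA libraries were compared with scramble+ATRA in edgeR 4.0.16 (R 4.3.3) with filterByExpr, TMM factors and its quasi-likelihood test over all 14281 genes, with Benjamini-Hochberg adjustment. A call needed an unadjusted P under 0.05 and a 1.5-fold change, the thresholds of the study. The SE is the log2 fold change divided by the square root of F. With 2 libraries a group, 0.333 is the smallest two-sided p that permutation allows. The interaction over all 8 libraries was fitted on 13528 genes. Counts for shKDM3B+ATRA against scramble+ATRA were also simulated for 13656 genes, of which 200 were changed 3-fold. The test recovered 58.5% of the changed genes and called 4.5% of the unchanged ones. In the real comparison, 4.37% of all genes were called lower and 2.42% higher, so part of the calls may be false. The 109 genes, gene lists and tests were chosen with earlier results of these data known, and roles were assigned by hand after the values were seen. Genes were named by rule: the 12 with the highest mean CPM in scramble+ATRA, the 4 highest of each function list, the 4 largest falls and rises among those called, and the 3 nearest each side of the 2 CPM minimum. Others are said to be chosen after their values were seen, or are only listed. A gene named by the rule is not reported here. Alternatives were DESeq2 1.42.0, other scalings and filters, the replicate block, adjusted P, other limits of the rule and leaving out each library. The DESeq2 adjusted calls, the order of libraries by CPM scaled to library size alone, and FPR1 and IL2RA set at 3 counts were added after seeing the data. Annotation came from GENCODE v44 and RefSeq, handled with Python 3.11.15, pandas 2.3.3 and bedtools 2.31.1.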

Additional observations from a re-analysis of the deposited data

How the results depend on the processing

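The number of genes that met the rule was 109. It was 70 with an untreated limit of 10 pairs, 48 with a limit of 5, 214 with a minimum of 1 CPM, 50 with a minimum of 5 CPM and 65 without genes that share exons. At 5 CPM, 26 genes reached the minimum in both shKDM3B+ATRA libraries, against 63 at 2 CPM. Leaving out 1 library gave 16 to 74 genes called lower and 1 to 7 called higher, and over all genes 94 to 1951 lower and 40 to 3409 higher. The median log2 fold change of the 109 genes lay between -1.26 and -1.02 over all the alternatives run. With Benjamini-Hochberg adjustment edgeR called 0 of the 109 genes lower and 0 higher, and 0 of all genes in either direction, while 1383 had an unadjusted P under 0.05. DESeq2 with adjustment called 28 of the 109 genes lower and 1 higher, and 261 lower and 126 higher over all genes. For the named genes and KDM3B, 387 of 468 alternative values kept direction and side of the threshold, 23 passed it in addition, 46 no longer passed it and 12 changed sign. None of the genes that changed sign was called with all 4 libraries. The log2 fold change of OAS1 went from -0.0032 to 0.0044 with DESeq2, 0.0048 with RLE scaling, 0.033 with library size alone and 0.12 with the replicate block, and without 1 library it ran from -1.22 to 1.56 (-0.73 without scramble+ATRA replicate 1, 1.56 without replicate 2, 0.65 without shKDM3B+ATRA replicate 1). HIC1 ran from -0.99 to 0.40, positive without scramble+ATRA replicate 2. CYP26B1 (-0.95 to 0.34) and GLDN (-0.18 to 0.61) changed sign without shKDM3B+ATRA replicate 1, APOL3 (-0.36 to 0.11) without shKDM3B+ATRA replicate 2, and PFKFB2 (-0.28 to 0.51) without scramble+ATRA replicate 1 (-0.15) or shKDM3B+ATRA replicate 2 (-0.28).

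Same-numbered libraries did not deviate together (correlation 0.0376 over 12654 genes), so the replicate numbers were not taken as pairing. With the number as a replicate block, 36 of these 109 genes were called lower, 35 of them among the 51, and over all genes 346 were called lower and 179 higher. The cause of these differences was not tested. Genes at 2 CPM rest on 19.4 to 33.8 read pairs in a treated library.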

Other observations

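An interaction test of whether the response to ATRA differed between the lines, fitted in edgeR over all 8 libraries, gave 0 of the 109 genes and 0 of 13528 genes at an adjusted p under 0.05. At an unadjusted P under 0.05 it gave 14 of the 109 genes and 607 of all genes. Both the rule and this test used the untreated and scramble+ATRA libraries, so the 14 are a description. The untreated and treated libraries list partly different names, and only names common to all 8 entered this test.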
